A study of Homo sapiens with 4 samples.

Results

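The genes described here are 10 imprinted genes in 4 chromosomal domains, and the measurement is how much of each domain was covered by H3K9me3 peaks in U2OS, an established cell line from a human osteosarcoma. The members were chosen by name and position. MKRN3, MAGEL2, NDN and SNRPN lie in the 15q11 domain (chr15:23700001-25700000), and H19, IGF2 and KCNQ1OT1 lie in the 11p15 domain (chr11:1950001-2950000). DLK1 and MEG3 lie in the 14q32 domain (chr14:101100001-101600000), and PEG10 lies in the 7q domain (chr7:94200001-94350000). Positions are on hg19 and counted from 1. The domains span 3.65 Mb and make up 73 bins of 50 kb, out of 56699 such bins on chromosomes 1 to 22 and X. The study's title asks how the local density of H3K9me3 bears on genomic contacts held by HP1a condensates. All 4 samples come from formaldehyde-fixed U2OS cells and carry the name KRAB-IDR3-TCF3, which the labels leave unexplained. In 2 samples the chromatin was precipitated with an antibody to H3K9me3, and the other 2 are inputs that saw no antibody.

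The values come from 2 lists of broad peaks, called list 1 and list 2. The input samples' labels point to list 1 and the antibody samples' labels to list 2, but the peaks inside both lists are named as immunoprecipitations. Neither list was therefore given to a group, and they are shown side by side rather than compared as input and antibody. Each list is 1 set of values, so no value below has a replicate error and no test across samples could be run. Standard deviations (SD) below are over bins, which are not replicates. The read depth behind the lists is unknown, and no correction was made for the uneven DNA copy number of U2OS. Peaks also do not separate the maternal from the paternal chromosome.

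An imprinted gene is expressed mainly from the copy inherited from a single parent. The choice is carried by DNA methylation set in the germ line at control regions, and on the methylated copy KRAB zinc finger proteins with TRIM28 and SETDB1 are known to maintain H3K9me3. H3K9me3 is otherwise a mark of constitutive heterochromatin and is bound by HP1 proteins. In the 15q11 domain, the paternal copy of SNRPN starts a long transcript that carries the SNORD116 and SNORD115 clusters of small nucleolar RNAs, and the zinc finger protein ZNF274 is known to bind within SNORD116 and to recruit SETDB1 there.

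Promoter sequences show how different the starts of these genes are in CpG sites, where DNA methylation falls. RefSeq promoters of 300 bases on GRCh38.p14 were matched for 6 of the 10 members, MKRN3, MAGEL2, NDN, SNRPN, H19 and MEG3. IGF2, KCNQ1OT1, DLK1 and PEG10 were not matched. The 4 below were chosen because their start bins range from the most covered of the members (SNRPN) through MEG3 and NDN to H19, which had no peak in list 2. They read 5′ to 3′ along the gene, with the letters CG in capitals, and where a gene has several starts the sequence with the most CG is shown. Their coordinates are on another build than the peaks and are not printed.
SNRPN (plus strand): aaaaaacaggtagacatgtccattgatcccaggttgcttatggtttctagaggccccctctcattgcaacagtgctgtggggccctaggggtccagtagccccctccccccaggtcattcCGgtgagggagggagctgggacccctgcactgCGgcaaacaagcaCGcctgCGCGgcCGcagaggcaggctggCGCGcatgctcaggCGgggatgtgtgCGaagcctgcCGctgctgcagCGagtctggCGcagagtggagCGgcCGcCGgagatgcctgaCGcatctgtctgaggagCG
MEG3 (plus strand): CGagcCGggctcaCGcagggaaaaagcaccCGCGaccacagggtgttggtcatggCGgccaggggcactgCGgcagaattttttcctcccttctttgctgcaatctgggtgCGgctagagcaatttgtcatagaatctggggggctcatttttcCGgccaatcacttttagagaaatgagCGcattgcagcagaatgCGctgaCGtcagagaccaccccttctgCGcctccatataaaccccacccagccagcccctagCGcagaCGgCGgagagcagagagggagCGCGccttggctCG
NDN (minus strand): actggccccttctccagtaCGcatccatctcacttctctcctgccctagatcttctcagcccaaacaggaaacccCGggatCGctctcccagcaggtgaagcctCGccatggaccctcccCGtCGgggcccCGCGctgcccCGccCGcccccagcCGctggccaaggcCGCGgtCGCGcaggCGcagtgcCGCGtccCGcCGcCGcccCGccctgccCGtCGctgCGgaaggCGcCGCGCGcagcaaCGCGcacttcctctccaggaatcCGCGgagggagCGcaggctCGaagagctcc
H19 (minus strand): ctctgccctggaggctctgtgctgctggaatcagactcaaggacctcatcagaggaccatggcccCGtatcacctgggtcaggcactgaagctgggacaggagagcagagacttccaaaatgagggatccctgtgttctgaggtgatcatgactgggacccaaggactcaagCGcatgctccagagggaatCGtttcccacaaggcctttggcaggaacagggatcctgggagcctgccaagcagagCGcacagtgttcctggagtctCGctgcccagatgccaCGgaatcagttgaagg
The sequence CG, which reads the same on both strands, occurs 35 times in the NDN promoter, and 14.1% of the 35116 promoters in the table hold it at least as often. It occurs 19 times in that of MEG3 (42.9% of promoters hold as many) and 18 times in that of SNRPN (44.5%). The H19 promoter holds 6 (66.3%). For MKRN3 and MAGEL2 the numbers are 15 (48.9%) and 9 (58.4%), against a median of 14 over the table. The 6 matched members thus have no common CG content at these starts, and the other SNRPN starts hold 7, 2 and 11.

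Coverage separated the domains from each other. Peaks covered 64.7% of the 15q11 domain in list 1 and 51.2% in list 2. They covered 54.9% and 34.6% of the 14q32 domain, 38.5% and 25.3% of the 7q domain, and 36.5% and 20.7% of the 11p15 domain. The order from 15q11 down to 11p15 was therefore the same in both lists, although 7q and 11p15 were close in list 1. Windows as long as 15q11, placed every 50 kb along the genome, had a median of 48.7% in list 1 and 25.1% in list 2, and the domain lay at their 82.4th and 92.5th percentiles. The 14q32 domain lay at the 61.4th and 70.8th percentiles of windows of its own length. The 7q domain lay at the 36.7th and 55.2nd, and 11p15 at the 27.9th and 42.0th. The 15q11 domain thus had the highest percentiles of the 4 in both lists, which is a description of these lists with no test.

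Against the 1 Mb on either side, the covered share of 3 domains was above that of their flanks in both lists. The ratio of the domain's covered share to that of both flanks was 1.81 in list 1 and 2.07 in list 2 for 14q32 (flanks 30.4% and 16.7%). It was 1.48 and 1.61 for 15q11 (flanks 43.6% and 31.8%) and 1.36 and 1.39 for 11p15 (flanks 26.9% and 14.8%). Without the 2 bins of 11p15 from 2.6 to 2.7 Mb, picked after their high values were seen, its ratios were 1.18 and 1.06. No bin was taken out of the flanks, so these ratios could only fall. The median bin of 11p15 in list 1 was 36.3%, against 29.2% in its flanks. In list 2 it was 10.5% in the domain against 11.1% in the flanks. For 7q the ratio was 0.736 in list 1 (flanks 52.3%) and 1.00 in list 2 (25.2%). When list 1 was limited to peaks at or above the lowest −log10 p of list 2, the ratio of 7q turned to 1.41 and that of 14q32 was 3.20.

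The flanks of a domain differed from each other. Peaks covered 8.81% of the centromere side of 15q11 in list 1 and 3.15% in list 2, against 78.4% and 60.5% of the other side. The domain was thus 7.35 and 16.3 times as covered as the centromere side but 0.825 and 0.848 times as covered as the far side. In list 2 the nearest 0.5 Mb of the far side, at 49.7%, was slightly below the domain. The centromere side includes chr15:23300368-23628417, a stretch of 328 kb without a peak in either list. With stretches of at least 100 kb without a peak in either list taken out, the 15q11 ratios were 1.20 and 1.31. The 14q32 domain also lay beside a sparse centromere side (19.2% and 7.36%) and a denser far side (41.6% and 26.1%). The nearest 0.5 Mb of the far side was covered 63.7% and 42.5%, more than the domain itself, so the dense stretch ran on past the domain. With flanks of 0.5 Mb the 14q32 ratios were 1.40 and 1.43. The 11p15 domain exceeded its telomere side (30.6% and 15.4%) and its centromere side (23.1% and 14.2%).

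**Figure D1:**
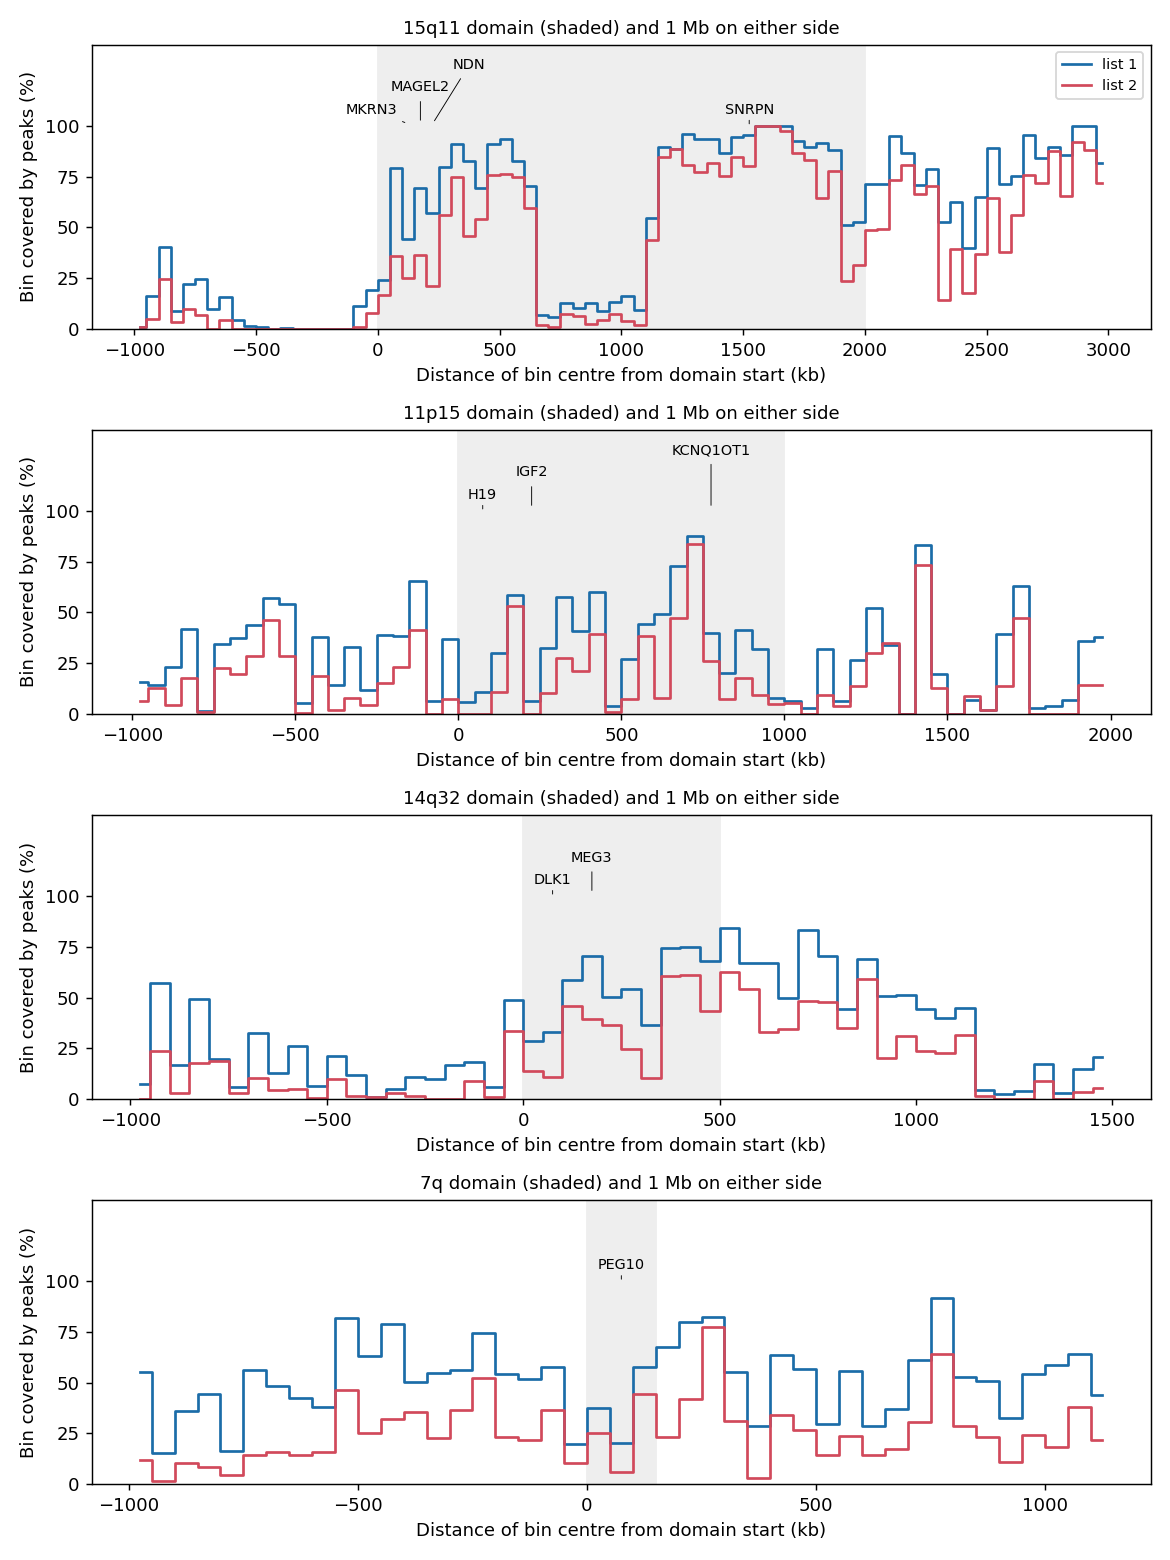
Share of each 50 kb bin covered by peaks (y axis, %) against the distance of the bin centre from the domain start (x axis, kb), for list 1 (blue) and list 2 (red), with the domain shaded and the members named above their start bins. In 15q11 the coverage drops to between 1.12% and 16.3% over 9 bins in the middle of the domain and reaches 100% beyond SNRPN.

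**Figure D2:**
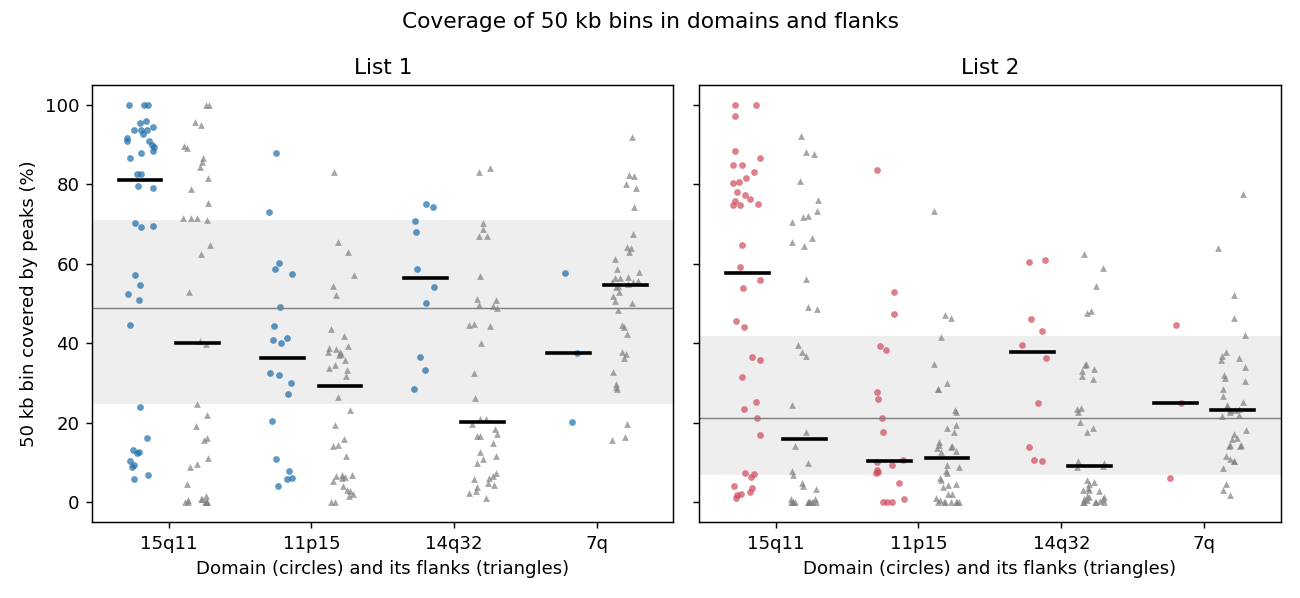
Share of every 50 kb bin covered by peaks (y axis, %) in each domain (coloured circles) and its flanks (grey triangles), with black bars for medians, a grey line for the genome median and a grey band for the genome quartiles. The median bin of 15q11 lies at 81.1% in list 1 and 57.6% in list 2, and that of its flanks at 40.2% in list 1.

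Over all domains, 42 of 73 bins (57.5%) were at least 50% covered in list 1, against 48.7% of all bins in the genome. In list 2 the count was 26 of 73 (35.6%) against 17.8%. At least 50% was covered in both lists together, counting only base pairs in both, in 24 bins (32.9%) against 14.6%. Most of these bins lay in 15q11, which makes up 40 of the 73 bins and held 29 of the 42 and 22 of the 26. In the 11p15 domain 5 and 2 of 20 bins passed this limit, in 14q32 7 and 2 of 10, and in 7q 1 and 0 of 3. No bin of the domains was without a peak in list 1 (2.37% in the genome). In list 2 there were 3 such bins (8.07% in the genome), all in 11p15 and including those of H19 and IGF2.

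The 15q11 domain was made of dense and sparse blocks. The block borders were chosen after the bins had been seen. From 23.7 to 24.35 Mb, over the 13 bins that hold MKRN3, MAGEL2 and NDN, the mean covered share was 71.9% ± 20.1 (SD over bins) in list 1 and 50.2% ± 21.7 in list 2. In the next 9 bins, up to 24.8 Mb, it was 10.6% ± 3.35 and 4.04% ± 2.37. Over the 16 bins from 24.8 to 25.6 Mb, which hold NPAP1, SNRPN and both snoRNA clusters, it was 90.9% ± 10.6 and 81.7% ± 13.6. The last 2 bins, which reach the start of UBE3A, were at 51.8% ± 1.06 and 27.6% ± 5.59. No bin of the sparse block reached the lowest bin of either dense block in its list. At the first border the share went from 70.3% to 6.76% between neighbouring bins in list 1, and from 59.3% to 2.02% in list 2. The border at 24.8 Mb was more gradual. There the share rose from 9.29% to 54.7% and then 89.4% in list 1, and from 1.93% to 44.0% and then 84.8% in list 2. The sparse block was not empty, with 42 peaks in list 1 and 21 in list 2, but the widest of these measured 3324 bp and 1957 bp. The longest stretch without a peak there was 42.9 kb in list 1 and 63.1 kb in list 2.

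Many bins of 15q11, most of them in the dense block around SNRPN, were at the upper end of the genome. Of the 40 bins of 15q11, 10 in list 1 and 18 in list 2 lay above the 95th percentile of all bins (91.8% and 74.3%). In the block from 24.8 to 25.6 Mb, 32 peaks of list 1 covered 727 kb and 65 peaks of list 2 covered 653 kb, with no gap longer than 13.9 kb and 14.2 kb. The median fold enrichment of these peaks, as the authors' peak caller gave it relative to its own background, was 1.95 in list 1 and 2.36 in list 2. Over all peaks the median was 1.64 and 2.12.

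A single peak ran from the SNRPN bin across the SNORD116 bins in both lists. In list 1 it spanned chr15:25216918-25412320, a width of 195 kb with a fold of 2.41, and 15 of the 326674 peaks of the list were at least as wide. In list 2 it spanned chr15:25247851-25385645, a width of 138 kb with a fold of 2.98, and 5 of 264919 peaks were at least as wide. The list 2 peak lay wholly inside covered sequence of list 1, and 97.0% of the list 1 peak was covered in list 2. These folds were at the 99.0th and 98.7th percentiles of their lists. Next to it, the peak of highest fold of the domain in list 1, 2.60, spanned chr15:25414746-25420414 in the bin where SNORD115 begins. In list 2 that place had a peak at chr15:25414489-25420312 with a fold of 2.59.

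Genes were placed in bins from general knowledge of hg19, since no annotation of that build was used here, and only their order along each chromosome was checked against the RefSeq gene table. Each value is for the whole bin that holds the gene start, not for the gene, and genes in a shared bin share its value. SNRPN, which encodes a core spliceosome protein, had the highest coverage of the 10 members in both lists. Its CpG-rich start lies in chr15:25200001-25250000, which was covered 95.3% in list 1 and 80.4% in list 2, at the 97.3rd and 96.8th percentiles of all bins.

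The other members of 15q11 had less coverage at their starts. MAGEL2, a MAGE family regulator of ubiquitin ligases, lies in chr15:23850001-23900000, covered 69.6% and 36.6% (percentiles 73.8 and 69.8). A peak of 26.9 kb in list 1, chr15:23841907-23868847, reached into this bin from the bin of MKRN3. MKRN3, a makorin RING finger protein known for restraining the onset of puberty, lies in chr15:23800001-23850000, covered 44.5% and 25.2% (percentiles 45.1 and 55.8). The bin of NDN, which encodes the MAGE family protein necdin, is chr15:23900001-23950000, covered 57.2% and 21.3% (percentiles 59.5 and 50.1). MKRN3 and NDN were thus near the middle of the genome in both lists. The bins of MKRN3, MAGEL2 and NDN all lay below the mean of their block in both lists (71.9% and 50.2%).

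The peak of highest fold of the domain in list 2 began just past the NDN bin, at chr15:23950241-23950743, with a fold of 3.01 over 503 bp. It was 1 of 4 peaks of list 2 in 15q11 with a q at or under 0.05, out of 187 (2.14%), against 2.07% of all peaks of the list. The others were the 138 kb peak (q = 0.0359), chr15:24725321-24726922 in the sparse block (q = 0.0364) and chr15:25168246-25168748 (q = 0.0472). In list 1, 0 of the 152 peaks of the domain had such a q (0.190% of the list). By the authors' q-values the share of strong peaks in 15q11 was near that of the list. The 11p15, 14q32 and 7q domains held 0 peaks with such a q in either list, so the peaks named there did not reach it.

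Peaks of at least 10 kb made up most of the covered length of 15q11. They numbered 34 of 152 (22.4%) in list 1, against 9.62% of all its peaks, and 26 of 187 (13.9%) in list 2, against 4.45%. They held 1032 kb of the 1294 kb covered in list 1 and 635 kb of the 1025 kb covered in list 2. The other domains were nearer to the lists as a whole, with 8 of 119 (6.72%) and 5 of 61 (8.20%) in 11p15, 8 of 69 (11.6%) and 4 of 62 (6.45%) in 14q32, and 1 of 20 and 1 of 12 in 7q. The median width of all peaks was 1973 bp in list 1 and 1564 bp in list 2. That of 15q11 was above this in both lists, at 2299 and 1770 bp, but was the highest of the domains in list 1 only. The median width was 1436 and 1892 bp for 11p15, 1482 and 1656 bp for 14q32, and 2025 and 2644 bp for 7q.

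In the 11p15 domain, little of the bins of H19 and IGF2 was covered in list 1, and list 2 had no peak there. H19, a long noncoding RNA expressed from the maternal copy, lies in chr11:2000001-2050000, covered 10.8% in list 1 by 6 peaks with a highest fold of 1.71, and 0% in list 2. IGF2, the paternally expressed growth factor, lies in chr11:2150001-2200000, covered 6.19% in list 1 by 3 peaks, and 0% in list 2. These were the lowest values of the 10 members in both lists, at the 11.3rd and 7.12th percentiles of all bins in list 1. List 2 had no peak from the domain start to 2072600, a stretch of 123 kb, and none over chr11:2146099-2228371, a stretch of 82.3 kb. Between these stretches lay the covered bin chr11:2100001-2150000, at 58.6% and 53.0%. It held a peak of 12964 bp in list 1 (chr11:2101880-2114843, fold 2.18) and one of 13366 bp in list 2 (chr11:2100195-2113560, fold 2.48).

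The most covered part of 11p15 lay just before the start bin of KCNQ1OT1, an antisense noncoding RNA that starts inside KCNQ1 and silences its neighbours on the paternal copy. The KCNQ1OT1 bin itself, chr11:2700001-2750000, was covered 40.1% and 26.1% (percentiles 40.1 and 56.9). Its peak of highest fold was chr11:2730359-2736353 in list 1 (fold 2.22, at the 97.3rd percentile of the list) and chr11:2727123-2735430 in list 2 (fold 2.43, at the 85.4th). The 2 bins before it, chr11:2600001-2700000, were covered 73.1% and 87.9% in list 1 and 47.3% and 83.5% in list 2. The second of these was the only bin of the domain above the 95th percentile of the genome in list 2. Since KCNQ1OT1 is transcribed toward lower coordinates, its transcript is known to run into these bins. The rest of the domain was sparse, with means of 32.9% ± 21.0 and 16.7% ± 17.7 over the 13 bins up to 2.6 Mb and 28.4% ± 14.2 and 13.1% ± 8.67 over the last 5 bins.

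In the 14q32 domain, coverage was low at DLK1 and higher from there on. DLK1, a paternally expressed transmembrane protein related to Notch ligands, lies in chr14:101150001-101200000, covered 33.2% and 10.7% (percentiles 32.9 and 32.1). MEG3, a maternally expressed noncoding RNA, lies in chr14:101250001-101300000, covered 70.7% and 39.5% (percentiles 75.1 and 72.9). The first 2 bins of the domain averaged 30.8% ± 3.39 and 12.3% ± 2.26, and the 8 bins after them 61.0% ± 13.5 and 40.2% ± 17.0. In list 1 the lowest of these 8 bins, at 36.6%, was above both of the first 2, while in list 2 the lowest, at 10.3%, was not. That bin was chr14:101400001-101450000.

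The bin of MEG3 held a peak of a few kb found in both lists. It spanned chr14:101291618-101295415 in list 1 (3.80 kb, fold 1.93) and chr14:101291769-101294804 in list 2 (3.04 kb, fold 2.70). In list 2 its −log10 q of 1.14 was the highest of the domain, and its fold was at the 95.7th percentile of the list, while in list 1 it was at the 86.9th. The widest peak of the domain was chr14:101478167-101529638 in list 1, of 51.5 kb with a fold of 1.86. In list 2 this place was split among peaks of up to 15.3 kb, and 85.2% of the list 1 peak was covered.

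In the 7q domain, the bin of PEG10 was the least covered of the 3. PEG10, a paternally expressed gene derived from a retrotransposon, shares its bin chr7:94250001-94300000 with the start of SGCE, which encodes epsilon-sarcoglycan. This bin was covered 20.1% in list 1 and 6.07% in list 2 (percentiles 20.3 and 22.7), against 37.5% and 25.1% in the bin before it and 57.8% and 44.6% in the bin after it. Within it, a peak was found in both lists, chr7:94292285-94296473 in list 1 (fold 2.08, at the 94.3rd percentile) and chr7:94293261-94295966 in list 2 (fold 2.48, at the 88.1th). List 2 had no peak over chr7:94237699-94286229, a stretch of 48.5 kb before it. With 3 bins, the domain allows little description beyond these values.

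Ranked by the coverage of their start bins, the members kept nearly the same order in both lists. SNRPN, MEG3 and MAGEL2 ranked 1, 2 and 3 in each list, and DLK1, PEG10, H19 and IGF2 held the lowest 4 places. In list 1 NDN, MKRN3 and KCNQ1OT1 followed MAGEL2 in this order, and in list 2 the order was KCNQ1OT1, MKRN3 and NDN, with values from 21.3% to 26.1%. Without replicates, no neighbours in this order can be said to differ. At least 50% was covered in 4 of the 10 start bins in list 1 and in 1 of 10 in list 2, near the 48.7% and 17.8% of all bins, and the medians of 42.3% and 23.2% were near the genome medians of 48.9% and 21.3%. As a group, the start bins of the members were thus close to the genome as a whole, and SNRPN was the member above 50% in both lists.

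**Figure D3:**
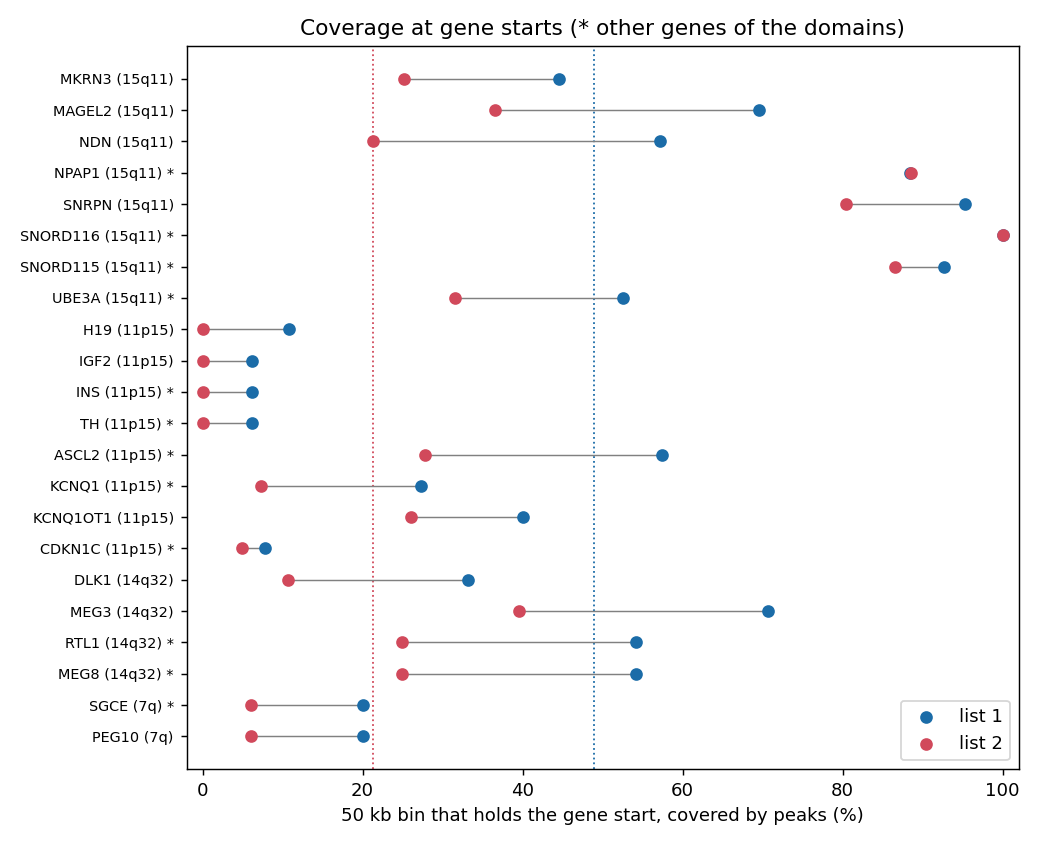
Share of the 50 kb bin that holds each gene start covered by peaks (x axis, %), in list 1 (blue) and list 2 (red), for the 10 members and 12 other genes of the domains (starred), with dotted lines at the genome medians of 48.9% and 21.3%. SNRPN and the snoRNA clusters lie at the right end, and H19 and IGF2 at the left.

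The other genes of the domains came from a list of 12. At least 50% of the start bin was covered in 7 of 12 in list 1 and in 3 of 12 in list 2, near the 48.7% and 17.8% of all bins. In this count RTL1 and MEG8 stand for the same bin, as do INS and TH. SNORD116 lay at 100% in both lists, SNORD115 at 92.7% and 86.5%, and NPAP1, which encodes a nuclear pore associated protein, at 88.4% and 88.5%. UBE3A, a ubiquitin ligase expressed from the maternal copy in neurons, lay at 52.5% and 31.5%. In 11p15, INS (insulin) and TH (tyrosine hydroxylase) share the bin of IGF2 and its low values. ASCL2, a basic helix-loop-helix factor, lay at 57.4% and 27.8%, the potassium channel gene KCNQ1 at 27.3% and 7.28%, and the cell cycle inhibitor gene CDKN1C at 7.84% and 4.92%. In 14q32, RTL1, a retrotransposon-derived gene, and the noncoding RNA MEG8 share a bin at 54.2% and 24.9%. By parental origin, maternally expressed H19 (10.8% and 0%) and MEG3 (70.7% and 39.5%) were far apart, as were paternally expressed IGF2 (6.19% and 0%) and SNRPN (95.3% and 80.4%). IGF2 and SNRPN are the extremes of the 10 members, with H19 level with IGF2 in list 2. Paternally expressed DLK1 (33.2% and 10.7%) and PEG10 (20.1% and 6.07%) lay between them. MKRN3, MAGEL2, NDN and KCNQ1OT1 were left out of these comparisons. Whether coverage differs by parental origin was not tested.

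The lists placed coverage alike within the domains. Over the 73 bins, Spearman's rho of the covered shares was 0.967 and Pearson's r was 0.948, against 0.938 and 0.901 over all 56699 bins. These describe bins that share a library and neighbours, and have no p. Within 15q11 rho was 0.939 over 40 bins, within 11p15 0.923 over 20 and within 14q32 0.891 over 10. List 1 covered more than list 2 in 70 of the 73 bins, much as it did over the genome, in 54918 of the 56699 bins. Of the peaks of list 2, 92.0% in 15q11, 88.5% in 11p15, 90.3% in 14q32 and 91.7% in 7q overlapped a peak of list 1 by at least 1 bp. In the other direction the shares were 63.2%, 38.7%, 52.2% and 55.0%. Overlap of peaks was not counted over the whole genome, where peaks filled on average 48.1% of a bin in list 1 and 27.0% in list 2. Whether peaks overlapped more often in the domains than elsewhere was therefore not tested.

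**Figure D4:**
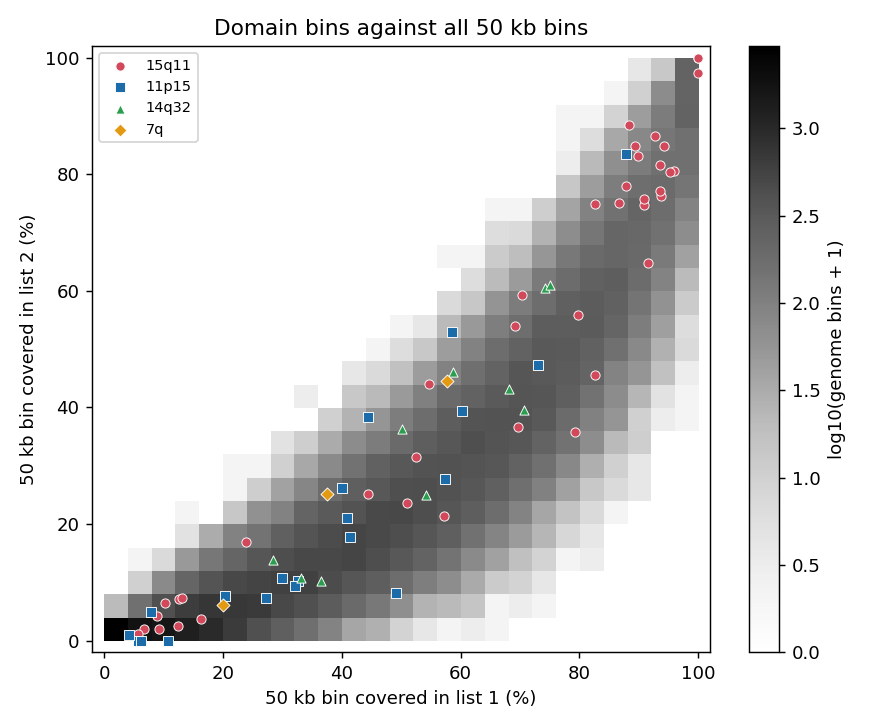
Share of each 50 kb bin covered in list 1 (x axis, %) and list 2 (y axis, %), for the 73 bins of the domains (coloured by domain) over all 56699 bins of the genome (grey, log10 of their number plus 1). The bins of 15q11 form a group at the upper right and a group at the lower left, and the other domains lie mostly between them.

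Folds in the 4 domains were close to those of the lists as a whole, whose medians were 1.64 in list 1 and 2.12 in list 2. The median fold was 1.74 in list 1 and 2.21 in list 2 for 15q11, 1.60 and 2.12 for 11p15, 1.66 and 2.11 for 14q32, and 1.59 and 2.21 for 7q. The highest folds were 2.60 and 3.01 in 15q11, 2.32 and 2.71 in 11p15, 2.10 and 2.70 in 14q32, and 2.15 and 2.57 in 7q. The highest folds lay at the 92.1st to 99.6th percentiles of all peaks, with 15q11 at the 99.6th in list 1 and the 98.9th in list 2. A highest value tends to rise with the number of peaks, which was 152 and 187 in 15q11 against 20 and 12 in 7q. The highest folds therefore do not set 15q11 apart from the other domains.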

How the data were processed

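H3K9me3 chromatin immunoprecipitation and input libraries came from fixed U2OS cells, 2 samples each, per the labels. Per the submitters' processing notes, hg19 was the build and the tools were MACS2 2.2.7.1, Bowtie2 2.5.0, bcl2fastq 2.17 and Trim Galore 0.6.7. The sources used here do not give the peak cutoff, control or pooling. Broad peak lists, as deposited, give each peak's position, score, fold (a ratio over the caller's background), −log10 p and −log10 q as the authors' values. The deposited score was not used. No depth is known, and nothing says whether samples came from separate cultures.

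Covered shares were computed per domain, flank (1 Mb on either side) and 50 kb bin. The background was all 50 kb bins of chromosomes 1 to 22 and X up to the last peak end, without bins touching peak-free stretches of at least 1 Mb, and windows of each domain's length every 50 kb. The bin coverage step was tested on 20 simulated sets with an error of 0 bp. Members and lists were chosen with earlier results of these data known. Named were all 10 members, 12 other genes of the domains, and, in each domain, peaks of highest fold or width, with further peaks and bins picked after their values were seen. Alternatives changed flanks, bins, peak limits and edges. Software was matplotlib 3.10.9, scipy 1.17.1, numpy 2.4.6 and pandas 2.3.3 under Python 3.11.15.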

Additional observations from a re-analysis of the deposited data

How the results depend on the processing

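Of 50 recomputed ratios of a domain to its flanks, 6 could not change. No stretch of at least 100 kb without a peak in either list lay in or beside those domains. Of the other 44, 35 kept their direction and lay within the Wilson 95% interval of the domain's covered share with bins as n, 2 moved beyond it and 7 reversed. Neighbouring bins are not independent and 7q has 3, so this interval is only a rough limit, and the values for base pairs in both lists serve both lists of a domain. The ratio of 15q11 in list 1 was 1.78 with flanks of 0.5 Mb. With list 1 peaks under the lowest −log10 p of list 2 dropped, the ratio of 14q32 was 3.20 and that of 7q reversed to 1.41. The ratio of 7q in list 2, 1.00, has no stable direction, as it was 0.861 with flanks of 0.5 Mb, 0.929 with flanks of 2 Mb, 0.936 for peaks above the median fold and 0.911 for base pairs in both lists. The cause was not tested. With −log10 q of at least 2, list 2 gave a ratio of 0 for 11p15 and 7q, since all domains held 0 such peaks and the flanks 2, and no other ratio could be had. Flanks of 2 Mb were not possible for 11p15, nor moved edges or 100 kb bins for 7q. The shares of bins at least 50% covered stayed within their Wilson intervals with bins of 25 kb and, outside 7q, 100 kb. With peak-free stretches kept, the genome's shares were 45.6% and 16.6%. In alternatives chosen after seeing the data, the ratios of 11p15 without the 2 bins before that of KCNQ1OT1 were 1.18 and 1.06, and rho over bins was 0.948 with 25 kb and 0.979 with 100 kb. No paired analysis was possible because a list is 1 set of values given to no sample. The unknown depth limits every value.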
